A study of Mus musculus with 192 samples.

Results

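The response of mouse bone marrow-derived dendritic cells to SeV given alone was measured against the control cells. The labels give the stimulus only as SeV, the usual abbreviation of Sendai virus, and state no dose. The comparison rests on the 3 libraries labelled SeV and the 3 labelled Ctrl, 6 libraries of a series of 64 groups of 3. All cells were grown from the bone marrow of female C57BL/6J mice, 6 to 8 weeks old, in medium with 15 ng/ml of the growth factor GM-CSF. They were plated at 100000 cells per well and stimulated for 6 h. Ctrl is the group whose ligand field reads Ctrl, with no further description. A further 4 groups, each of 3 libraries from the same kind of culture and the same 6 h, set the SeV response in context. They received 3',3'-cGAMP (called cGAMP here), a cyclic dinucleotide, LPS, a bacterial lipopolysaccharide, HMW, whose abbreviation the labels do not expand, or HMW and SeV together (HMW+SeV). Nothing in the labels says that the 3 libraries of a group came from separate cultures or animals, so the spread between them may be technical. The p-values set differences against such a spread between libraries, estimated over all 64 groups together.

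Sendai virus is an RNA virus whose copying produces RNA that the cytosolic sensor RIG-I detects. RIG-I, encoded by Ddx58, and its relative MDA5, encoded by Ifih1, signal through the adaptor MAVS to the transcription factor IRF3, which switches on the interferon beta gene Ifnb1. Secreted interferon then acts on the receptor formed by IFNAR1 and IFNAR2, and a complex of STAT proteins with IRF9 induces a large set of antiviral genes. The cGAMP group offers a comparison because cyclic dinucleotides reach IRF3 through the separate sensor STING. LPS is sensed by the surface receptor TLR4, which activates both IRF3 and the inflammatory factor NF-kB.

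Expression was read as counts of unique molecular identifiers (UMIs), tags that mark single cDNA molecules, and is given as CPM, counts relative to the library's total over tested genes, scaled between libraries with TMM factors. Totals were low and uneven, with 98864 to 201825 counts in the SeV libraries and 61823 to 89530 in the Ctrl libraries, the lowest mean of the 64 groups. A single count was worth 9.6 to 13.9 CPM in Ctrl and 4.69 to 9.56 CPM in SeV, so values below about this size are not resolved. The filter on low counts left 4720 of 23481 genes, with 95.7% of all counts. Ribosomal protein genes took 5.34% to 5.61% of counts in Ctrl and 3.75% to 3.92% in SeV, and the part of this difference in the results below was not tested. General markers of myeloid antigen-presenting cells were present in both groups, and none of 12 tested was called. Over all tested genes 10.5% were called higher and 5.13% lower with SeV, so a count of 0 among 12 is near that share. Their summed level was 17700 to 18360 CPM in SeV and 18780 to 22120 CPM in Ctrl. The dendritic cell markers Flt3 and Zbtb46 had 2 counts each over the SeV libraries and 1 and 0 counts over Ctrl, so they give the cell label no support at this depth. Lists of lymphocyte, erythroid and mast cell, and stromal markers summed to at most 14.1 CPM in any of the 6 libraries. Neutrophil markers summed to 844 to 975 CPM in SeV and 749 to 973 CPM in Ctrl. None of 8 tested was called, which is also near the share over all tested genes. In bulk samples a smaller number of cells of a type and less RNA per cell cannot be told apart.

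SeV raised a large set of genes and lowered a smaller one. Of 4720 genes tested, 495 (10.5%) were higher and 242 (5.13%) were lower with SeV than in Ctrl, at an adjusted p under 0.05 with a log2 fold change of at least 1 in size. All adjusted p-values are from the quasi-likelihood test of edgeR, with the adjustment of Benjamini and Hochberg over the 4720 genes, and fold changes are given as log2 ± SE. Fitted rises were larger than fitted falls. By fitted fold change, 264 genes rose at least 4-fold and 59 at least 16-fold, against 72 that fell at least 4-fold. Of the called genes, 25 that rose had no count in Ctrl and 2 that fell had none in SeV. Their fitted folds depend on the prior count and can exceed what the counts support. In 691 of the 737 called genes the 3 SeV libraries did not overlap the 3 Ctrl libraries. Among all tested genes, 17.2% had every SeV library above every Ctrl library and 15.2% had every one below. Calls and overlap were read from the same libraries, so the overlap is no separate support for the calls. The median log2 fold change over all tested genes was -0.08. Scaling by library size alone moved this median by -0.19 and gave 413 genes higher and 362 lower, which brought the share of calls that were higher from 67.2% to 53.3%. Leaving out SeV replicate 3 gave 144 lower genes, leaving out Ctrl replicate 2 gave 149 and leaving out Ctrl replicate 3 gave 152, so the number of falls is less firm than the number of rises.

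**Figure D1:**
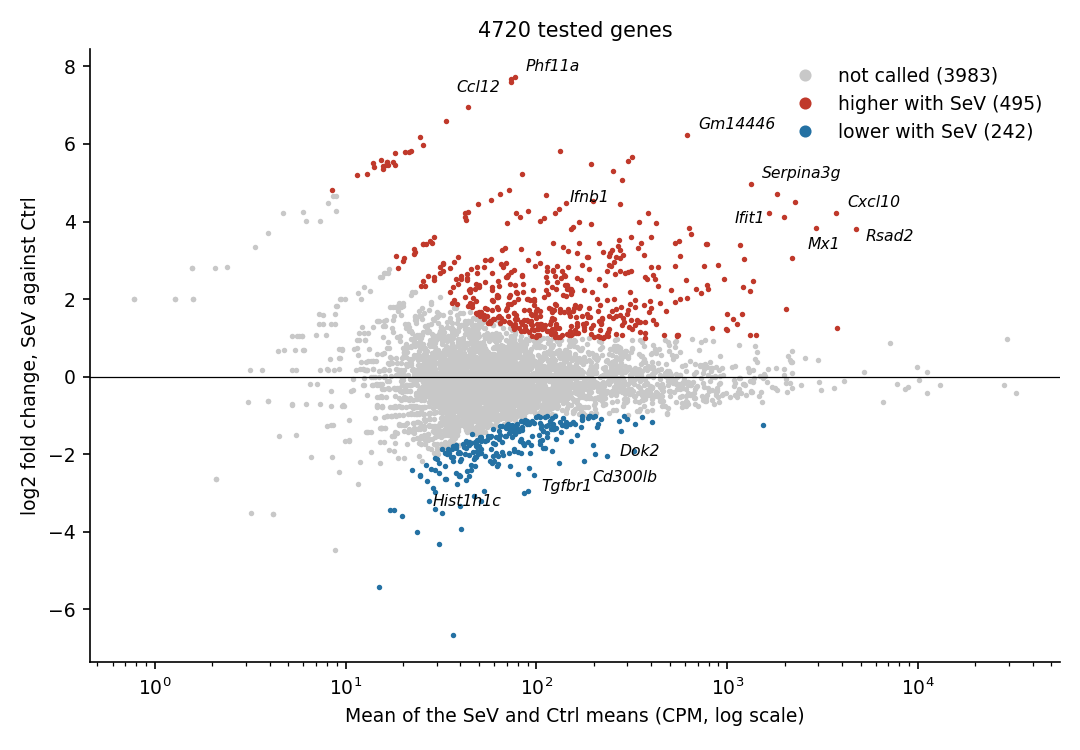
Each point is 1 of the 4720 tested genes. The x axis gives the mean of the SeV and Ctrl group means in CPM on a log scale and the y axis the log2 fold change of SeV against Ctrl. Red points are the 495 genes called higher, blue points the 242 called lower and grey points genes that were not called. The antiviral genes Rsad2, Cxcl10, Mx1 and Ifit1 lie at the upper right, high both in level and in fold change, whereas the genes with the largest falls lie at low levels.

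The largest fitted rises were taken among genes that averaged 100 CPM or more with SeV and whose groups did not overlap. The genes so chosen were in most cases silent or nearly silent in Ctrl. Phf11a, a PHD finger gene, had 153, 146 and 164 CPM in the SeV libraries and no count in the 3 Ctrl libraries, which puts it at least 13.4-fold higher when Ctrl is set to 3 counts over the group (adjusted p = 1.1e-08). Ccl12, a chemokine that attracts monocytes, had 115, 161 and 164 CPM with SeV and no count in Ctrl, at least 13.0-fold higher (adjusted p = 1.86e-08). Upp1, which encodes the nucleoside-cleaving enzyme uridine phosphorylase, had 191, 123 and 127 CPM with SeV and was also at 0 in every Ctrl library, at least 12-fold higher (adjusted p = 2.12e-08). For all 3 genes the SeV libraries lay clear of the control, as the choice required. Their place in the order rests on fitted values that depend on the prior count. Gm14446, a relative of the Ifit genes, was detected in Ctrl, with 1214, 1318 and 1135 CPM against 13.9, 12.5 and 19.2 CPM in Ctrl, a log2 fold change of 6.22 ± 0.56 (adjusted p = 7.43e-21). Serpina3g, a serine protease inhibitor gene, stood at 2867, 2545 and 2336 CPM against 97.0, 99.8 and 57.6 CPM, a log2 fold change of 4.96 ± 0.31 (adjusted p = 1.71e-35). Its neighbour in the same gene family, Serpina3f, had a single Ctrl count and a ratio of SeV to Ctrl of 66.4 (95% counting interval 11.7 to 2640). Fgl2, a secreted fibrinogen-like protein gene with 2 Ctrl counts, had a ratio of 48.6 (95% counting interval 13.3 to 405). The gene deposited under the symbol I830012O16Rik, with 3 Ctrl counts, had a ratio of 54.7 (95% counting interval 18.5 to 267). Their adjusted p-values were 1.15e-13 and 4.32e-24. A further 4 of the 12 largest rises, Cxcl9, Gbp4, Ifi44 and Igtp, belong to gene groups described below. The Serpina3, Phf11, Ifit, Oas and Gbp genes have close relatives, and how reads shared between relatives were counted is not given in the sources used here, so the division of counts among them is uncertain.

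Of the interferon genes themselves, Ifnb1 was the only one measured above a few counts. Its level was 249, 261 and 244 CPM in the SeV libraries and 13.9, 12.5 and 9.60 CPM in Ctrl, a single count in each Ctrl library. The groups were far apart and the SeV libraries were close to each other, with a mean of 251 ± 8.63 CPM (SD, n = 3). The ratio was 21.4 (95% counting interval 7.12 to 105), and the log2 fold change of 4.34 ± 0.59 had an adjusted p of 1.91e-10. Of the 20 interferon genes listed, 18 were in the table and only Ifnb1 passed the filter. Ifna2, Ifna4 and Ifna5 had 1 count each over the 3 SeV libraries and none in Ctrl, and the other 14 genes in the table, among them the interferon gamma and lambda genes, had none in either group. At this depth levels of the interferon alpha genes below a few CPM could not be detected.

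The cytosolic RNA sensor genes Ifih1, Ddx58 and Dhx58 rose with SeV. Of 14 tested genes of RNA sensing, 8 rose and 1 was called lower, against 10.5% and 5.13% of all tested genes, with a median log2 fold change of 1.59. Ifih1 stood at 1195, 1211 and 1210 CPM with SeV and 55.4, 99.8 and 115 CPM in Ctrl, a log2 fold change of 3.68 ± 0.26 (adjusted p = 3.65e-30). Ddx58 stood at 659, 667 and 624 CPM against 41.6, 49.9 and 76.8 CPM, a change of 3.46 ± 0.29 (adjusted p = 5.19e-23). Dhx58, the third member of this helicase family, which lacks a signalling domain, changed by 2.84 ± 0.42 (adjusted p = 4e-09). None of these 3 sensors had overlapping groups. The double-stranded RNA-dependent kinase gene Eif2ak2 rose by 2.44 on the log2 scale and the endosomal RNA receptor gene Tlr3, with 1 Ctrl count, had a ratio of 20.6 (95% counting interval 3.47 to 836). Of the genes that relay the signal below the sensors, Irf3 had 28.7, 38.3 and 28.1 CPM with SeV and 41.6, 74.8 and 86.4 CPM in Ctrl. Its log2 fold change of -1.14 ± 0.54 was not called (adjusted p = 0.134). The kinase genes Tbk1 and Ikbke were not called either, at 0.49 ± 0.31 and 0.54 ± 0.22. Not being called was the common outcome, as 10.5% of all tested genes were higher and 5.13% lower. Mavs, with 5 counts in SeV and 13 in Ctrl, did not pass the filter. The 1 member called lower, the adaptor gene Traf3, rested on 12 Ctrl counts, and its call was lost in 5 of 6 fits that left out a library: its log2 fold change of -2.29 was -2.25, -2.16 and -2.25 without SeV replicates 1, 2 and 3, and -2.17 and -1.73 without Ctrl replicates 2 and 3. Without Ctrl replicate 1 the list had 2 members called lower. Members that rose numbered 5 when libraries were thinned to equal totals or when the 2 groups were fitted alone, both of which test fewer genes.

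Of 10 tested genes of cytosolic DNA sensing 7 rose, against 10.5% of all tested genes, and none fell, with a median log2 fold change of 2.63. Among the DNA-binding proteins of the Ifi200 family, Ifi203 stood at 640.3, 751 and 788 CPM with SeV against 55.4, 24.9 and 38.4 CPM in Ctrl, a change of 4.21 ± 0.29 (adjusted p = 5.59e-31). Ifi204 stood at 1567, 1633 and 1515 CPM against 166, 199.6 and 259 CPM, a change of 2.87 ± 0.19 (adjusted p = 4.46e-33). Zbp1, a sensor of left-handed nucleic acid helices, changed by 3.86 ± 0.46 (adjusted p = 4.21e-13), and Trex1, an exonuclease that removes cytosolic DNA, by 2.67 ± 0.31 (adjusted p = 3.92e-14). In each of these 4 genes every SeV library lay above every Ctrl library. Tmem173, which encodes STING, had a log2 fold change of 1.54 ± 0.63 and was not called (adjusted p = 0.0725). Aim2, an inflammasome sensor of DNA, and the helicase gene Ddx41 were not called either, at 1.34 ± 0.62 and -0.48 ± 0.77 (adjusted p = 0.122 and 0.747).

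Downstream of the interferon receptor most tested genes were called higher, among them Irf7, Stat2, Irf9 and Irf1, and neither receptor chain was called. Of 14 tested genes 10 rose and none fell, against 10.5% and 5.13% of all tested genes, with a median of 1.21, and 6 rose in the fits on thinned counts or on the 2 groups alone. Irf7, the factor that amplifies interferon production, stood at 1453, 1456 and 1402 CPM against 83.1, 199.6 and 115 CPM, a change of 3.43 ± 0.25 (adjusted p = 8.19e-29). Stat2, a subunit of the interferon-activated complex, stood at 573, 491 and 497 CPM against 139, 87.3 and 28.8 CPM (2.71 ± 0.29, adjusted p = 4.26e-16). For both factors the groups did not overlap. Irf9, which gives this complex its DNA specificity, had a rise of 1.502 ± 0.38 (adjusted p = 0.00114) that was 0.72, no longer called, when libraries were thinned to equal totals, and Irf1 changed by 2.56 ± 0.26 (adjusted p = 6.04e-17). Ifnar1 had overlapping groups, 182, 123 and 178 CPM with SeV and 139, 125 and 173 CPM in Ctrl, and a log2 fold change of 0.13 ± 0.30 (adjusted p = 0.831). Ifnar2 also overlapped, at -0.28 ± 0.34 (adjusted p = 0.648).

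Negative regulators of this pathway were mixed. Of 11 tested, 5 rose, against 10.5% of all tested genes, and none fell, near the 5.13% of all tested genes, with a median of 1.32. Socs1, an inhibitor of JAK kinases, stood at 459, 337 and 352 CPM with SeV and 13.9, 0 and 28.8 CPM in Ctrl, a change of 4.53 ± 0.45 (adjusted p = 5.09e-18). Usp18, a protease that strips ISG15 from proteins and dampens receptor signalling, stood at 717, 721 and 657 CPM against 83.1, 99.8 and 106 CPM (2.82 ± 0.27, adjusted p = 3.52e-19). In contrast to both, Socs3 had overlapping groups, 105, 61.3 and 51.6 CPM against 69.3, 12.5 and 76.8 CPM, and a log2 fold change of 0.30 ± 0.47 (adjusted p = 0.732).

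**Figure D2:**
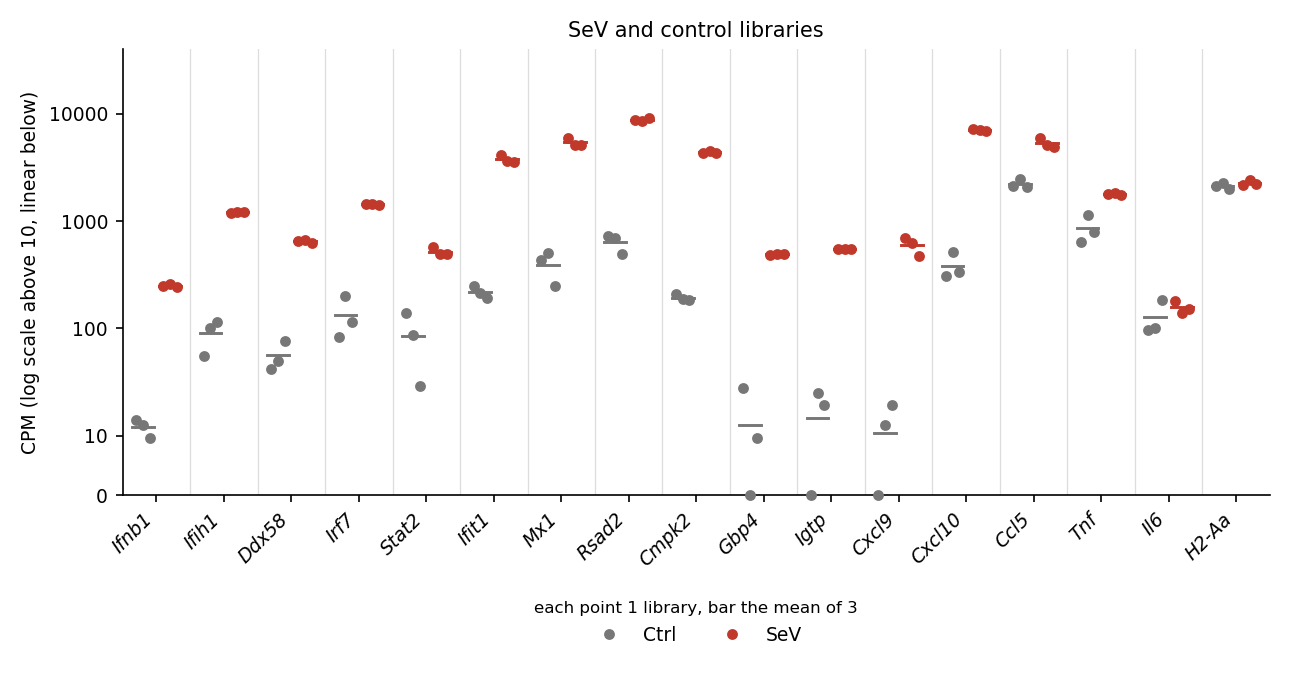
Levels of 17 genes in the 3 Ctrl libraries (grey) and the 3 SeV libraries (red). The y axis is CPM, logarithmic above 10 and linear below, each point is a library and each bar the mean of 3. The groups are separate from Ifnb1 to Tnf, whereas Il6 and H2-Aa overlap.

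Antiviral effector genes, whose products act directly on viral RNA, proteins or entry, rose nearly as a whole. Of 33 tested, 31 rose, against 10.5% of all tested genes, and none fell, with a median log2 fold change of 3.21 (3.12 with genes at 0 in Ctrl set to their bound), against -0.08 over all tested genes. Rsad2, which encodes viperin, stood at 8696, 8531 and 9108 CPM with SeV and 720.2, 698 and 489.7 CPM in Ctrl, a change of 3.81 ± 0.19 (adjusted p = 3.63e-47). Its genomic neighbour Cmpk2, a nucleotide kinase gene, stood at 4319, 4491 and 4292 CPM against 208, 187 and 182 CPM (4.51 ± 0.23, adjusted p = 6.83e-47). The transcript of the GTPase gene Mx1 stood at 6001, 5158 and 5154 CPM against 429, 499 and 249.6 CPM (3.83 ± 0.17, adjusted p = 1.64e-54). All 3 SeV libraries exceeded every Ctrl library in each of these genes. Among the Ifit genes, whose proteins bind foreign RNA ends, Ifit1 stood at 4119, 3625 and 3536 CPM against a mean of 218 ± 29.1 CPM (SD, n = 3) in Ctrl (4.12 ± 0.21, adjusted p = 2.62e-47). Ifit3 stood at 3383, 3794 and 3386 CPM against 111, 187 and 106 CPM (4.72 ± 0.28, adjusted p = 1.01e-38), and Ifit2 changed by 4.23 ± 0.26 (adjusted p = 2.13e-37). The Ifit groups did not overlap. Isg15, a ubiquitin-like modifier, changed less, from 139, 225 and 182 CPM in Ctrl to 1032, 1096 and 976 CPM (2.49 ± 0.23, adjusted p = 4.47e-20). Oasl1, of the oligoadenylate synthetase family, stood at 869.6, 1058 and 999 CPM against 55.4, 87.3 and 115 CPM (3.44 ± 0.35, adjusted p = 7.76e-17). Ifi44, a GTP-binding protein gene with 1 Ctrl count, had a ratio of 44.6 (95% counting interval 7.78 to 1790) (adjusted p = 5.43e-08). Ifitm2 was not called and had overlapping groups, at 95.6, 76.7 and 79.7 CPM with SeV and 97.0, 74.8 and 67.2 CPM in Ctrl. Ifitm3, which sits beside Ifitm2 and encodes a barrier to virus entry, rose by 2.86 on the log2 scale.

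Promoter sequences show which effector and chemokine genes hold the letters of the DNA element that the interferon-activated complex recognises. The core of this interferon-stimulated response element (ISRE) was searched as GAAANNGAAA on both strands, where N is any base, in RefSeq windows of GRCm38.p6 from 250 bases before to 50 bases after each gene start. The 4 effector and chemokine genes of largest fitted rise whose window holds it are shown, each as the 250 bases before the start, 5′ to 3′ on the strand of the gene, with matches in capitals. A match on the opposite strand appears as its reverse complement. The windows are chr14:59297523-59297772 on the minus strand for Phf11a, chr5:120887614-120887863 on the minus strand for Oas1g, chr19:34583279-34583528 on the plus strand for Ifit3 and chr5:92348890-92349139 on the minus strand for Cxcl10.
Phf11a: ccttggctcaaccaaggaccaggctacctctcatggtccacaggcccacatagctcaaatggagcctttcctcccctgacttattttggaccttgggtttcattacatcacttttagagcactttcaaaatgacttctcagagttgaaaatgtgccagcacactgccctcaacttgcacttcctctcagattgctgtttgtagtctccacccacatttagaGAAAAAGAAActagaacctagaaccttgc
Oas1g: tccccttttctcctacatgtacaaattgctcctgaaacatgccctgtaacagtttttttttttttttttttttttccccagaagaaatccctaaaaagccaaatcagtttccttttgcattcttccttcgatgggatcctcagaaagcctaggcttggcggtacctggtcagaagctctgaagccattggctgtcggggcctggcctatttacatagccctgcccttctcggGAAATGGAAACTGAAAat
Ifit3: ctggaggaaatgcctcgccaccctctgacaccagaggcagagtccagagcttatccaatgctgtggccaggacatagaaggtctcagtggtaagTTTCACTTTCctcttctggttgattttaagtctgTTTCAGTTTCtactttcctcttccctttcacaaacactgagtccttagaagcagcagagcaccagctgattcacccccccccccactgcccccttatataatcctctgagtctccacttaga
Cxcl10: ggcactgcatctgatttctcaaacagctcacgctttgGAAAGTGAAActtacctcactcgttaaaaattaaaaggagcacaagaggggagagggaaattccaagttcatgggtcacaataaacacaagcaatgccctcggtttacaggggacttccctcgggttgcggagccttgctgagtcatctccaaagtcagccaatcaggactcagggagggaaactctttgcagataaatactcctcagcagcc
In Phf11a the match begins 29 bases before the start. In Oas1g 2 matches that overlap each other begin 18 and 12 bases before it, and this gene was measured by 14 counts over the SeV libraries and none in Ctrl, at least 2.67-fold higher (adjusted p = 0.00788). In Ifit3 both matches lie on the opposite strand, beginning 156 and 122 bases upstream, and in Cxcl10 the match lies farther out, 213 bases upstream. Isg15 held 3 overlapping matches, beginning 78, 72 and 66 bases before its start, and Ifit1 held 2 on the opposite strand, 104 and 85 bases before it. Windows were matched to 3812 of the 4720 tested genes, and 14 of 26 effector and chemokine genes that rose and had a window held the core. The core was present in at least 1 window of 70 of 390 genes that were higher with SeV (17.9%), of 8 of 190 that were lower (4.21%) and of 122 of 3232 that were not called (3.77%). Among 92 higher genes with a log2 fold change of at least 3 it was present in 29 (31.5%), against 3.99% of all 27025 genes of the promoter table. A form of the NF-kB element, GGGANTTTCC on either strand, was present in 4 of the 390 higher genes (1.03%), none of the 190 lower genes, 2 of the 92 genes of largest rise (2.17%) and 0.708% of all tested genes with a window. These are counts of letters in short windows and say nothing of binding.

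The guanylate-binding proteins (GBPs) and immunity-related GTPases, which attack the membranes of intracellular pathogens, were called higher in every member tested. With 13 of 13 called, against 10.5% of all tested genes, the list had a median of 3.95, and 3 of the list had no count in either group. Igtp stood at 545, 544 and 549 CPM with SeV and 0, 24.9 and 19.2 CPM in Ctrl, 4 counts in all, a change of 5.07 ± 0.42 (adjusted p = 1.24e-23). Gbp4, with 3 Ctrl counts, stood at 487, 498 and 493 CPM and had a ratio of 42.2 (95% counting interval 14.2 to 206) (adjusted p = 1.17e-20). Gbp2 stood at 2274, 1985 and 2125 CPM against 125, 262 and 211 CPM (3.39 ± 0.18, adjusted p = 6.77e-44). The SeV libraries of these 3 genes lay above all Ctrl libraries. Iigp1 and Irgm1 changed by 4.00 ± 0.38 and 3.96 ± 0.29 (adjusted p = 4.67e-19 and 1.92e-29). The least certain member was Gbp9, with 2 Ctrl counts and overlapping groups, whose change of 2.34 was not called without SeV replicates 1 or 3 (1.98 and 2.30) or Ctrl replicates 1 or 3 (1.94 and 1.70). Its call was also lost with RLE factors, with library size alone, with no filter and under DESeq2, at 2.23, 2.17, 2.53 and 2.32.

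Some chemokines rose steeply and others were not called. Of 17 tested, 8 rose and none fell, against 10.5% and 5.13% of all tested genes, with a median of 1.26. Among the ligands of CXCR3, a chemokine receptor of T cells, Cxcl10 stood at 7263, 7105 and 6923 CPM with SeV and 305, 511 and 336 CPM in Ctrl (4.21 ± 0.23, adjusted p = 2.02e-42). Cxcl9 stood at 698, 621 and 469 CPM against 0, 12.5 and 19.2 CPM, 3 counts, with a ratio of 48.5 (95% counting interval 16.4 to 236) (adjusted p = 2.69e-22). The monocyte attractant gene Ccl2 stood at 277, 276 and 244 CPM against 27.7, 24.9 and 28.8 CPM (3.23 ± 0.53, adjusted p = 1.13e-07). Ccl4 and Ccl5, attractants of T cells and monocytes, rose from levels already well above a single count. Ccl5 stood at 5963, 5105 and 4915 CPM against 2133, 2470 and 2074 CPM (1.26 ± 0.16, adjusted p = 8.28e-12), and Ccl4 at 3383, 3035 and 2964 CPM against 789.5, 1160 and 864 CPM (1.73 ± 0.19, adjusted p = 3.19e-15). The groups of these 5 chemokines did not overlap. Ccl7, with no Ctrl count, had 38.2, 23.0 and 37.5 CPM with SeV, at least 2.86-fold higher. Its call was lost without SeV replicate 3 and without any of Ctrl replicates 1, 2 and 3 in turn. Its fitted log2 value of 5.53, which depends on the prior count, was then 5.39, 5.54, 5.54 and 5.54. The neutrophil attractant gene Cxcl2 overlapped, at 526, 552 and 422 CPM with SeV and 416, 549 and 413 CPM in Ctrl (0.10 ± 0.27, adjusted p = 0.856). Ccl22, which attracts T cells bearing CCR4, also overlapped, at -0.18 ± 0.32 (adjusted p = 0.767).

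Of 21 tested inflammatory genes driven by NF-kB, 5 were called higher, against 10.5% of all tested genes, and none lower, with a median of 0.63, and 3 were called higher without Ctrl replicate 3. This count was 2 with RLE factors or library size alone and 1 under DESeq2 or after thinning. Tnf stood at 1787, 1824 and 1768 CPM with SeV and 637, 1135 and 797 CPM in Ctrl (1.06 ± 0.20, adjusted p = 5.9e-06). The groups did not overlap, but the change was near the fold threshold and was 0.95, no longer called, without Ctrl replicate 1, and 0.88 when scaled by library size alone. Il6 overlapped, at 182, 138 and 150.1 CPM against 97.0, 99.8 and 182 CPM (0.23 ± 0.34, adjusted p = 0.725). Il1b overlapped too, at 507, 337 and 385 CPM against 319, 362 and 259 CPM (0.38 ± 0.21, adjusted p = 0.223). Il15, a cytokine that sustains natural killer and memory T cells, was the member with the largest called rise, from 13.9, 37.4 and 38.4 CPM in Ctrl to 143, 199 and 253 CPM (2.71 ± 0.44, adjusted p = 1.02e-07). The gene of its presenting receptor chain, Il15ra, stood at 478, 475 and 511 CPM against 41.6, 74.8 and 28.8 CPM (3.37 ± 0.35, adjusted p = 7.91e-17).

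Genes of MHC class I presentation, which shows peptides from inside the cell to CD8 T cells, rose in part. Of 15 tested 10 rose, against 10.5% of all tested genes, and none fell, with a median of 1.41. The peptide transporter gene Tap1 stood at 487, 506 and 478 CPM with SeV and 55.4, 37.4 and 76.8 CPM in Ctrl (3.05 ± 0.28, adjusted p = 8.24e-20). Nlrc5, the transactivator of class I genes, changed by 2.71 ± 0.34 (adjusted p = 6.6e-12), and the immunoproteasome subunit gene Psmb8 by 1.87 ± 0.23 (adjusted p = 1.34e-12). The class I chain genes B2m and H2-K1 were higher by less than the fold threshold, with B2m at 0.86 ± 0.11 (adjusted p = 8.9e-12) and H2-K1 at 0.66 ± 0.13 (adjusted p = 6.95e-06). Of 8 tested genes of MHC class II presentation, which serves CD4 T cells, none was called, with a median of 0.16, where 10.5% of all tested genes were higher and 5.13% lower, so a count of 0 among 8 is near the share over all genes. H2-Aa overlapped, at 2169, 2430 and 2209 CPM against 2147, 2245 and 1987 CPM (0.10 ± 0.11, adjusted p = 0.607), and Cd74, the invariant chain, at 0.22 ± 0.15 (adjusted p = 0.358). Of 10 tested genes of dendritic cell maturation 6 rose, against the same 10.5%, and none fell, with a median of 2.01. The costimulatory receptor gene Cd40 stood at 478, 353 and 408 CPM against 69.3, 112 and 115 CPM (2.01 ± 0.30, adjusted p = 7.39e-09), and Cd86 at 153, 130.3 and 145 CPM against 27.7, 49.9 and 28.8 CPM (2.00 ± 0.51, adjusted p = 0.00137). Cd274, which encodes the T cell inhibitory ligand PD-L1, changed by 2.25 ± 0.18 (adjusted p = 3.58e-25). Neither Cd40, Cd86 nor Cd274 had overlapping groups, whereas Ccr7, the lymph node homing receptor, was not called, at 0.55 ± 0.25 (adjusted p = 0.114).

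**Figure D3:**
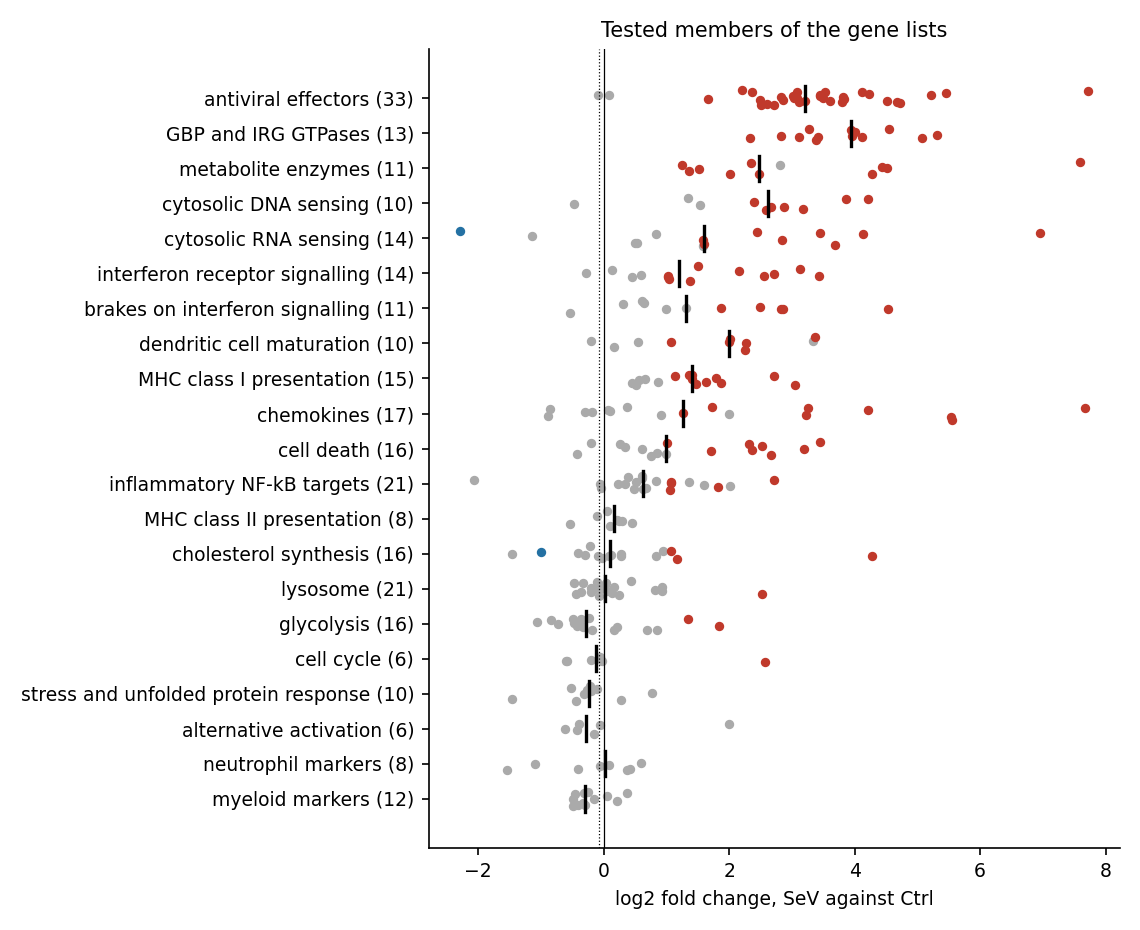
Log2 fold change of SeV against Ctrl for the tested members of the gene lists with more than 1 tested gene, with the number tested in brackets. Each point is a gene, red when called higher, blue when called lower and grey when not called. The black bar is the list's median, the solid line marks 0 and the dotted line the median of all tested genes. Medians range from 3.95 for the GTPases to -0.31 for the myeloid markers, and 2 members of the lists shown were called lower.

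Of 11 tested enzymes known from the interferon response, 10 rose, against 10.5% of all tested genes, and none fell, with a median of 2.48. Irg1, the itaconate synthase gene, stood at 2599, 2184 and 2125 CPM with SeV and 402, 474 and 365 CPM in Ctrl (2.48 ± 0.15, adjusted p = 6.91e-37). Nt5c3, a pyrimidine nucleotidase gene, stood at 487, 537 and 539 CPM against 27.7, 37.4 and 9.60 CPM (4.44 ± 0.37, adjusted p = 9.26e-24). Ch25h, whose enzyme makes 25-hydroxycholesterol, had 2 Ctrl counts and a ratio of 20.9 (95% counting interval 5.58 to 176) (adjusted p = 3e-07). None of these 3 enzymes had overlapping groups. Of 16 tested glycolysis genes 2 were called higher, near the 10.5% of all tested genes, and their median was -0.28. These were the rate-setting enzyme genes Hk3 (1.34 ± 0.25, adjusted p = 5.44e-06) and Pfkp (1.84 ± 0.46, adjusted p = 0.000942). Of 21 tested lysosome genes 1 was called higher, near the share over all tested genes, with a median of 0.02. This was the protease gene Ctsc, from 194, 424 and 240 CPM in Ctrl to 1615, 1771 and 1552 CPM (2.52 ± 0.20, adjusted p = 8.03e-25). Lamp2, a lysosomal membrane protein gene just under the fold threshold at 0.94, was called as well without SeV replicate 1, SeV replicate 3 or Ctrl replicate 2 (1.01, 1.04 and 1.07). Of 16 tested genes of cholesterol handling 3 were higher and 1 lower, near the 10.5% and 5.13% of all tested genes, with a median of 0.10, and the number higher was 1 under DESeq2, library size alone or thinning. The lower gene, the cholesterol exporter Abca1, lay at the fold threshold with -1.01, and was not called without SeV replicates 1 or 2 (-0.90 and -0.91) or Ctrl replicates 1 or 3 (-0.75 and -0.98). None of 10 tested genes of the integrated stress and unfolded protein responses was called, with a median of -0.24, and none of 6 alternative activation genes, which is near the 10.5% higher and 5.13% lower of all tested genes. In the cell death list 8 of 16 tested rose, against 10.5% of all tested genes, and none fell, with a median of 1.00, and 5 rose in the fits on thinned counts or on the 2 groups alone. Casp1, the inflammasome protease, changed by 2.52 ± 0.34 (adjusted p = 7.22e-11), Daxx by 3.44 ± 0.40 (adjusted p = 1.61e-13) and Tnfsf10, the death ligand TRAIL, by 3.19 ± 0.57 (adjusted p = 1.8e-06). The apoptosis effector gene Bax was not called, at -0.20 ± 0.45 (adjusted p = 0.831).

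The 12 largest falls, taken among genes that averaged 100 CPM or more in Ctrl and had separate groups, were in receptor, signalling, lipid and chromatin genes. Tgfbr1, which encodes the type I receptor for TGF-beta, stood at 19.1, 23.0 and 18.8 CPM with SeV and 152, 187 and 144 CPM in Ctrl (-2.95 ± 0.48, adjusted p = 1.46e-07). Hist1h1c, a linker histone gene, stood at 19.1, 23.0 and 14.1 CPM against 194, 149.7 and 115 CPM (-3.01 ± 0.57, adjusted p = 7.36e-06). In both genes the lowest Ctrl library lay above the highest SeV library. The fatty acid desaturase genes Scd2 and Fads1 also fell (-2.37 ± 0.52 and -2.24 ± 0.61, adjusted p = 0.000131 and 0.00320). Dok2, an adaptor that restrains tyrosine kinase signalling, stood at 47.8, 138 and 84.4 CPM against 360.1, 337 and 442 CPM (-2.06 ± 0.35, adjusted p = 4.5e-07). Cd300lb, a receptor of myeloid cells, stood at 86.0, 53.7 and 56.3 CPM against 332, 237 and 298 CPM (-2.18 ± 0.39, adjusted p = 1.98e-06). Also among them were Stac2, Rps6ka1, Iqsec1, Hmha1 and Adssl1, with log2 fold changes from -2.54 to -2.18. All 12 were measured by 26 to 99 Ctrl counts over 3 libraries.

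Few genes were called between SeV and cGAMP at 6 h. The direct comparison of the 3 SeV and 3 cGAMP libraries called 6 genes higher with SeV (0.127% of those tested) and 42 lower (0.89%), and 503 genes reached an unadjusted p under 0.05. Ifnb1 was not called between them, at 266, 210.4 and 111 CPM with cGAMP, a log2 difference of 0.40 ± 0.28 (SeV minus cGAMP, adjusted p = 0.652). Of the 33 antiviral effectors 32 were not called, with a median difference of -0.05, and none of the 13 GTPases was called. Both counts are near the shares over all tested genes, 0.127% higher and 0.89% lower. The effector that was called was Oasl1, which stood at 3053, 2565 and 2651 CPM with cGAMP, above all 3 SeV libraries (-1.49 ± 0.19, adjusted p = 2.85e-10). Of the gene lists, the chemokines held the most calls, with Ccl3, Ccl4, Ccl5 and Ccl7 lower with SeV among 17 tested. Ccl4 stood at 9133, 8981 and 9421 CPM with cGAMP, a difference of -1.56 ± 0.16 (adjusted p = 1.41e-15), and Ccl5 at 14130, 12210 and 12870 CPM, a difference of -1.30 ± 0.15 (adjusted p = 3.34e-13). Ccl3 stood at 1195, 1104 and 1013 CPM with SeV and 2751, 2542 and 2160 CPM with cGAMP (-1.18 ± 0.16, adjusted p = 7.71e-09). No SeV library reached the lowest cGAMP library in these 3 genes. The costimulatory gene Cd86 was also lower with SeV, with 431, 397 and 381 CPM with cGAMP (-1.48 ± 0.26, adjusted p = 1.37e-05). Among genes with at least 100 CPM in either group, the largest differences were falls with SeV in Tmem37, Rgcc and Hopx. Rgcc, a cell cycle regulator, had 66.9, 38.3 and 42.2 CPM with SeV and 284, 462 and 424 CPM with cGAMP (-3.06 ± 0.36, adjusted p = 1.76e-12). Hopx, an atypical homeodomain gene, had 66.9, 92.0 and 113 CPM with SeV and 871, 503 and 632 CPM with cGAMP (-2.77 ± 0.30, adjusted p = 1.32e-13). Neither was called between SeV and Ctrl, at 0.98 ± 0.74 and 0.80 ± 0.56. Of the genes higher with SeV, the collagenase gene Mmp13 stood at 640.3, 498 and 647 CPM against 293, 333 and 203 CPM with cGAMP (1.12 ± 0.22, adjusted p = 0.000211). Ccr2, a chemokine receptor gene, stood at 143, 146 and 169 CPM with SeV, 208, 125 and 182 CPM in Ctrl and 64.2, 40.9 and 61.4 CPM with cGAMP (1.496 ± 0.42, adjusted p = 0.0367). The number of genes higher with SeV fell to 2 without SeV replicate 1, 3 without cGAMP replicate 2 and 0 without cGAMP replicate 3, and that of genes lower to 26 without SeV replicate 3.

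Between SeV and LPS, Ifnb1 was higher with SeV, and 13 of 21 tested NF-kB targets were lower with SeV. The direct comparison called 150 genes (3.18%) higher with SeV and 222 (4.7%) lower. Ifnb1 showed the largest difference of the genes higher with SeV, at 0, 22.2 and 17.9 CPM with LPS, 8 counts in all, a difference of 4.01 ± 0.44 (SeV minus LPS, adjusted p = 1.03e-14). None of the 33 antiviral effectors was called, which is near the 3.18% higher and 4.7% lower of all tested genes. Their median difference was -0.13. Ifit1 stood at 3528, 3935 and 3991 CPM with LPS (-0.03 ± 0.14, adjusted p = 0.945), and its libraries overlapped those with SeV. Cxcl10 was likewise not called, at 6774, 7493 and 7647 CPM with LPS (-0.04 ± 0.16, adjusted p = 0.923). Cxcl9, by contrast, stood at 119, 139 and 188 CPM with LPS, below every SeV library (1.92 ± 0.23, adjusted p = 1.64e-12), and Ccl12 likewise, at 29.8, 38.8 and 22.4 CPM (2.31 ± 0.44, adjusted p = 1.48e-05). Of the 21 NF-kB targets 13 were lower with SeV, with a median difference of -1.46. Il6 stood at 1370, 1086 and 1342 CPM with LPS (-3.03 ± 0.20, adjusted p = 3.12e-32) and Il1b at 3432, 3636 and 3477 CPM (-3.13 ± 0.15, adjusted p = 4.76e-51). Tnf stood at 4437, 4373 and 4506 CPM with LPS (-1.31 ± 0.17, adjusted p = 1.05e-11). The LPS libraries of all 3 cytokines lay above every SeV library. Ccl5 stood at 27250, 25210 and 28620 CPM with LPS (-2.35 ± 0.15, adjusted p = 5.17e-35), and Ccl22 stood at 953, 1103 and 1078 CPM (-3 ± 0.20, adjusted p = 5.07e-32). The acute-phase gene Saa3 stood at 468, 406 and 361 CPM with SeV and 5099, 4073 and 3754 CPM with LPS (-3.41 ± 0.21, adjusted p = 4.9e-36). Some of the genes higher with SeV than with LPS had overlapping SeV and Ctrl libraries. Nrp1, a coreceptor of semaphorins, had 182, 360.2 and 399 CPM with SeV, 319, 324 and 384 CPM in Ctrl and 37.2, 66.5 and 62.6 CPM with LPS (2.50 ± 0.30, adjusted p = 4.8e-13). Fos, an AP-1 subunit gene, had 124, 123 and 75.0 CPM with SeV, 111, 112 and 106 CPM in Ctrl and 29.8, 11.1 and 13.4 CPM with LPS (2.56 ± 0.49, adjusted p = 1.17e-05). Leaving out SeV replicate 3 gave 99 genes higher with SeV in place of 150. The comparisons with Ctrl, cGAMP and LPS share the SeV libraries and so are not independent of each other.

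**Figure D4:**
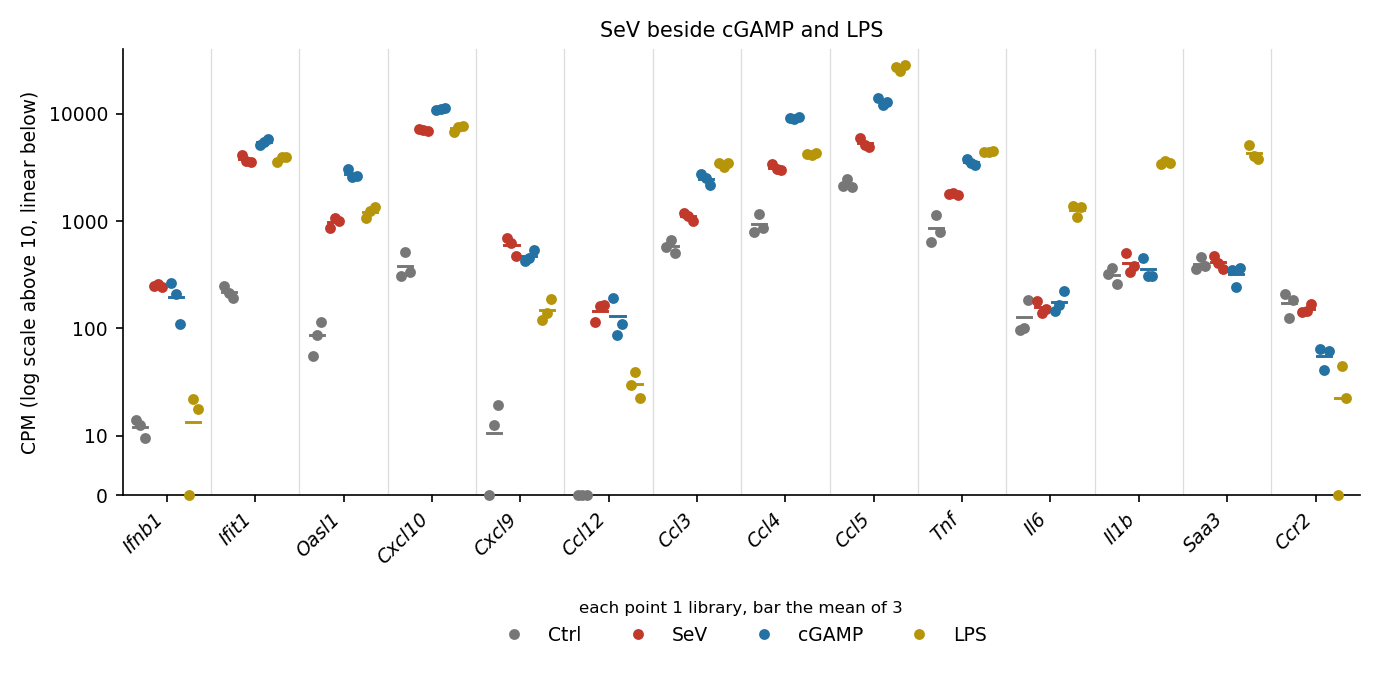
Levels of 14 genes in the Ctrl (grey), SeV (red), cGAMP (blue) and LPS (yellow) libraries. The y axis is CPM, logarithmic above 10 and linear below, each point is a library and each bar the mean of 3. Ifnb1 is high with SeV and cGAMP and near its Ctrl level with LPS, whereas Il6, Il1b and Saa3 are high with LPS alone among these groups.

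The effect of SeV was measured a second time on cells that also received HMW, with 6 other libraries. Of the tested genes 472 (10%) were higher with HMW+SeV than with HMW and 211 (4.47%) were lower. A total of 347 genes were called higher in both comparisons, 70.1% of those higher with SeV alone and 73.5% of those higher on HMW. For falls this was 90 genes, 37.2% and 42.7%, and no gene was called in opposite directions. Ifnb1 stood at 266, 245 and 270.1 CPM with HMW+SeV and 8.32, 0 and 13.9 CPM with HMW (5.04 ± 0.49, adjusted p = 2.99e-18), and Cxcl10 at 7901, 8297 and 8449 CPM against 457, 717 and 423 CPM (3.92 ± 0.20, adjusted p = 1.25e-46). The SeV libraries of each comparison lay above their controls for both genes. Of the 33 antiviral effectors 29 rose on HMW, with a median of 2.00, and all 13 GTPases rose, with a median of 2.48. Tgfbr1 fell on HMW too (-2.44 ± 0.41, adjusted p = 2.46e-07).

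The test of the difference between the effect of SeV with HMW and without it was positive for 2 genes (0.0424%) and negative for 30 (0.636%), when called on adjusted p alone (under 0.05), whatever the fold. A negative value means a smaller rise on HMW, since all 30 genes rose with SeV alone. Of the 30, 10 were antiviral effectors, and Rtp4, Ifi203 and Ifi204 had the smallest p-values. Rtp4, an interferon-induced transporter protein gene, stood at 97.0, 49.9 and 38.4 CPM in Ctrl, 831, 751 and 629 CPM with SeV, 308, 408 and 246 CPM with HMW and 763, 699 and 736 CPM with HMW+SeV. Its level with SeV overlapped that with HMW+SeV, while every HMW library lay above every Ctrl library. The difference in effect was -2.44 ± 0.35 on the log2 scale (adjusted p = 1.73e-07). Mx1 stood at 789.9, 1112 and 659.9 CPM with HMW and 4168, 5472 and 5323 CPM with HMW+SeV (-1.29 ± 0.23, adjusted p = 5.3e-05). Every HMW library of Mx1 again lay above every Ctrl library, and its HMW+SeV libraries overlapped those with SeV. For Ifnb1 the difference was 0.71 ± 1.22 and was not called (adjusted p = 1.00). Genes called lower on HMW numbered 120 without HMW+SeV replicate 2 and 129 without HMW replicate 3, in place of 211. The number of genes called for the difference was 9 without HMW replicate 2, 14 without Ctrl replicate 3 and 21 without Ctrl replicate 2, in place of 32.

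**Figure D5:**
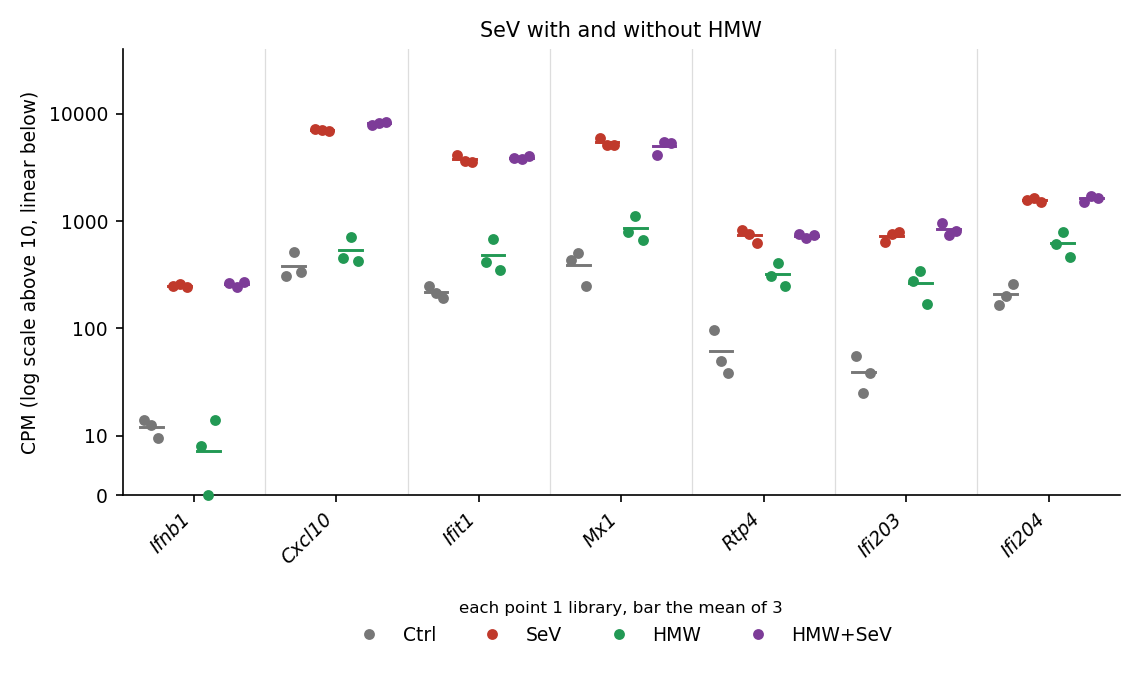
Levels of 7 genes in the Ctrl (grey), SeV (red), HMW (green) and HMW+SeV (purple) libraries. The y axis is CPM, logarithmic above 10 and linear below, each point is a library and each bar the mean of 3. For Rtp4, Ifi203 and Ifi204 the HMW libraries lie above the Ctrl libraries, and the SeV and HMW+SeV libraries lie above both.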

How the data were processed

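The authors deposited raw UMI counts per gene and library, made from mouse bone marrow-derived dendritic cells. The submitters' processing notes name BWA 0.7.15 and the mm10 build, with no role given, and whether counting used strand is not given in the sources used here. Genes passing edgeR's filterByExpr were fitted over all 64 groups together in edgeR 4.0.16 (limma 3.58.1, R 4.3.3) with TMM factors and the quasi-likelihood test, with Benjamini-Hochberg adjustment over 4720 genes, 128 residual degrees of freedom and a biological coefficient of variation of 10.3%. A gene was called at an adjusted p under 0.05 and a log2 fold change of at least 1 in size. CPM values are deposited counts over the TMM-scaled totals of the tested genes. DESeq2 1.42.0 was an alternative, as were other scalings, no filter, thinning to the lowest total, a fit of the compared groups alone, a replicate block and leaving out each library. Ratios with 1 to 3 control counts carry 95% counting intervals, which cover counting error only, and a group at 0 was set to 3 counts.

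Libraries were grouped by their labels, and no pair of replicates agreed within sampling noise. Genes named are members of gene lists and a fixed set of pathway genes, the 12 largest rises and 12 largest falls, a choice from the 8 largest differences in each direction from cGAMP and LPS, and the 3 smallest p-values of the interaction, the test of whether the SeV effect differed with HMW. For the rules by size the groups could not overlap and the higher had to average 100 CPM. The members and lists were chosen with earlier results of these data known. Promoters are from RefSeq. Some genes that the rules name are not reported here.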

Additional observations from a re-analysis of the deposited data

Results flagged for a closer look

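For 3 genes the effect of SeV on cells that also received HMW differed from its effect without HMW by a direct test of the difference, and these had the smallest p-values of the 32 genes called. The difference, as log2 fold change with HMW minus without, was -2.44 for Rtp4, -2.55 for Ifi203 and -1.48 for Ifi204, with adjusted p-values of 1.73e-07, 8.49e-07 and 1.34e-05 from the quasi-likelihood test of edgeR. In all 3 genes the SeV rise was smaller on HMW.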

How the results depend on the processing

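Counts of genes between SeV and Ctrl (495 higher, 242 lower) kept more rises than falls in every alternative run. They were 293 and 100 with all libraries thinned to equal totals and 310 and 113 in a fit of the 2 groups alone, which test fewer genes. With no filter on low counts 99 were lower. DESeq2 gave 378 and 268. Fold changes moved to the TMM median, chosen after seeing the data, gave 442 and 309 under library size alone. Leaving out 1 library gave 428 to 497 higher and 144 to 174 lower. Against cGAMP, genes higher with SeV numbered 3 with no filter, 2 under DESeq2, 13 with no fold threshold and 0 to 6 without 1 library, and genes lower 19 when thinned, 25 under DESeq2 and 26 to 38 without 1 library. Against LPS, genes higher numbered 57 when thinned, 241 with no fold threshold and 99 to 130 without 1 library, and genes lower 111 when thinned. On HMW, genes higher numbered 226 when thinned, and genes lower 369 under library size alone, 135 with no filter, 68 when thinned and 120 to 184 without 1 library. The interaction called 9 to 40 genes without 1 library. Where an alternative did not test fewer genes or use fewer samples, the cause was not tested. The fit with the replicate block gave 495 higher and 246 lower and lost none of 145 called genes followed. Replicate numbers did not pair SeV and Ctrl libraries, whose deviations from group means correlated at -0.028, -0.024 and -0.012 for numbers 1, 2 and 3 over 2964 genes. Of the 145 genes, 120 were called in all 13 alternatives and none reversed. In Ctrl a count was worth 9.6 to 13.9 CPM, which limits what low genes can show.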
